A study of Rattus norvegicus with 4 samples.

Results

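The leukocyte miRNAs described here are 8 mature microRNAs (miRNAs, small regulators that repress messenger RNAs) known from blood cells, out of 680 rat miRNA names measured in each library of rat liver. They were taken by name and not by a cutoff on their values, but with earlier results of these data known. They are rno-miR-142-3p and rno-miR-142-5p, rno-miR-223, rno-miR-511 and rno-miR-511*, rno-miR-150, and rno-miR-342-3p and rno-miR-342-5p. The study set liver labelled as hepatic fibrosis (2 samples) against liver labelled as normal (2 samples), by sequencing small RNA libraries made from total tissue RNA. The labels used here name no strain, age or agent behind the fibrosis, and do not say whether the samples of a group came from separate animals. The second fibrosis file and the second normal file held the same value for each of the 680 names, with 0 differences, and were counted as 1 library, called the shared library because it stands under both labels, and its tissue is not settled. The value column of the second normal file is headed by a code that is not the title of that sample or of any other here, while the columns of the other files are headed by their titles. The data thus come from 3 distinct libraries, and fibrosis replicate 1 and normal replicate 1 are the only ones under a single label.

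Leukocytes enter the liver through its sinusoids, and the organ also has its own macrophages, the Kupffer cells, so leukocyte miRNAs in whole liver can come from resident and from circulating cells. miR-142 is made in nearly all blood cell lineages and both of its arms are known to repress targets. miR-223, known for restraining neutrophils in mice, and miR-511, which lies in the gene of the macrophage mannose receptor, are made mainly by myeloid cells. miR-150, which represses the transcription factor Myb in mouse lymphocytes, and miR-342, which lies in the gene Evl, are abundant in lymphocytes. None of these is made by that lineage alone. In bulk tissue, fewer cells of a type and less RNA per cell cannot be told apart.

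The hairpin precursor of a miRNA is cut into an arm from its 5′ side (5p) and an arm from its 3′ side (3p), and the bases 2 to 8 of an arm, the seed, set which messages it pairs with. The files name some arms by side and others by an asterisk on the arm once thought minor. By the later arm-based naming miR-511* is the 3p arm and miR-223 without an asterisk the 3p arm, which was not checked against reads. The sequences below are from RefSeq (build GRCr8) and show that the arms compared later carry different seeds, given in capitals. A mature sequence was matched for 7 of the 8 members, and these had 7 distinct seeds.
miR-142-5p: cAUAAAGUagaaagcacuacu
miR-142-3p: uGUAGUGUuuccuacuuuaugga
miR-511-3p (miR-511*): aAUGUGUAgcaaaagacagga
miR-511-5p (miR-511): cAUGCCUUuugcucugcacuc
miR-223-3p (miR-223): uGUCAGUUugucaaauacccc
miR-342-3p: uCUCACACagaaaucgcacccgu
miR-342-5p: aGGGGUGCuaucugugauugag

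Among the 693 rat mature names of that RefSeq table, only miR-532-5p shared a seed with any of the 7, namely with miR-511-5p. In GRCr8 the hairpin of miR-142 lies at chr10:73055104-73055190 within the span of Tspoap1, that of miR-342 at chr6:133329655-133329753 within the span of Evl, and that of miR-511 at chr17:82187953-82188031 within the span of Mrc1, the mannose receptor gene. The hairpin of miR-223 lies at chrX:65151383-65151492 within the span of a long noncoding RNA gene. All 4 hairpins are on the plus strand. Whether the exons or introns of these genes hold the hairpins was not examined. The submitters' processing notes name the older build rn5, and no coordinate was converted.

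Levels are in reads per 1000000 reads (RPM). The totals behind this scaling were 6951148 reads for fibrosis replicate 1, against 7070374 for normal replicate 1, and 6357069 for the shared library. Each value was a whole number of reads, so the reads behind it are known, and 1 read was worth 0.144, 0.141 and 0.157 RPM in these libraries. Where no read was seen, the level may still reach 0.432, 0.424 and 0.472 RPM in the same order (3 reads). The hepatocyte miRNA miR-122 took 48.3%, 50.9% and 47.2% of the miRNA reads. The defining miRNA of liver was thus present at a high level throughout. The 8 leukocyte miRNAs together had 420 reads in fibrosis replicate 1, against 352 in normal replicate 1, and 557 in the shared library. That is 0.0120%, 0.00963% and 0.0167% of all miRNA reads. Intervals given below are 95% exact intervals for counting error only, since the reads carry no molecular identifiers and each side has 1 library.

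miR-142-5p was the most abundant of the 8 in every library. It stood at 39.4 RPM (274 reads) in fibrosis replicate 1, against 26.4 RPM (187 reads) in normal replicate 1, and at 56.0 RPM (356 reads) in the shared library. The counting intervals of the 3 levels, 34.9 to 44.4, 22.8 to 30.5 and 50.3 to 62.1 RPM, did not overlap. This arm ranked 42nd of 250 detected miRNAs in fibrosis replicate 1, against 50th of 239 in normal replicate 1, and 34th of 236 in the shared library, and alone held 65.2%, 53.1% and 63.9% of the reads of the 8. Its partner miR-142-3p had only 3 reads in fibrosis replicate 1 (0.432 RPM), against 5 in normal replicate 1 (0.707 RPM), and 4 in the shared library (0.629 RPM), with intervals that overlap among all 3 libraries.

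Of the myeloid miRNAs, miR-511* was the only one above a few reads. It had 12.1 RPM (84 reads) in fibrosis replicate 1, against 13.2 RPM (93 reads) in normal replicate 1, and 23.0 RPM (146 reads) in the shared library. The shared library stood apart for it, with an interval of 19.4 to 27.0 RPM against 9.64 to 15.0 RPM in fibrosis replicate 1 and 10.6 to 16.1 RPM in normal replicate 1, which overlap each other. miR-511 itself had 0 reads in fibrosis replicate 1, against 1 in normal replicate 1, and 0 in the shared library, so its level cannot be compared. miR-223, the classic neutrophil miRNA, had 7 reads in fibrosis replicate 1 (1.01 RPM), against 2 in normal replicate 1 (0.283 RPM), and 8 in the shared library (1.26 RPM). Its 3 intervals, 0.405 to 2.07, 0.0343 to 1.02 and 0.543 to 2.48 RPM, overlap. For each read of miR-223 the libraries held 39.1, 93.5 and 44.5 reads of miR-142-5p.

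The most abundant lymphoid miRNA was miR-342-3p, and it was the member with the opposite order of libraries from miR-142-5p. It stood at 5.32 RPM (37 reads) in fibrosis replicate 1, against 8.34 RPM (59 reads) in normal replicate 1, and at 4.72 RPM (30 reads) in the shared library, and the intervals of the 3 levels overlap. Its other arm, miR-342-5p, had 8 reads in fibrosis replicate 1 (1.15 RPM), against 1 in normal replicate 1 (0.141 RPM), and 2 in the shared library (0.315 RPM). Within fibrosis replicate 1 the arms of this hairpin therefore sit on different sides of their levels in normal replicate 1. miR-150 had 7 reads in fibrosis replicate 1 (1.01 RPM), against 4 in normal replicate 1 (0.566 RPM), and 11 in the shared library (1.73 RPM), with overlapping intervals in all 3.

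**Figure D1:**
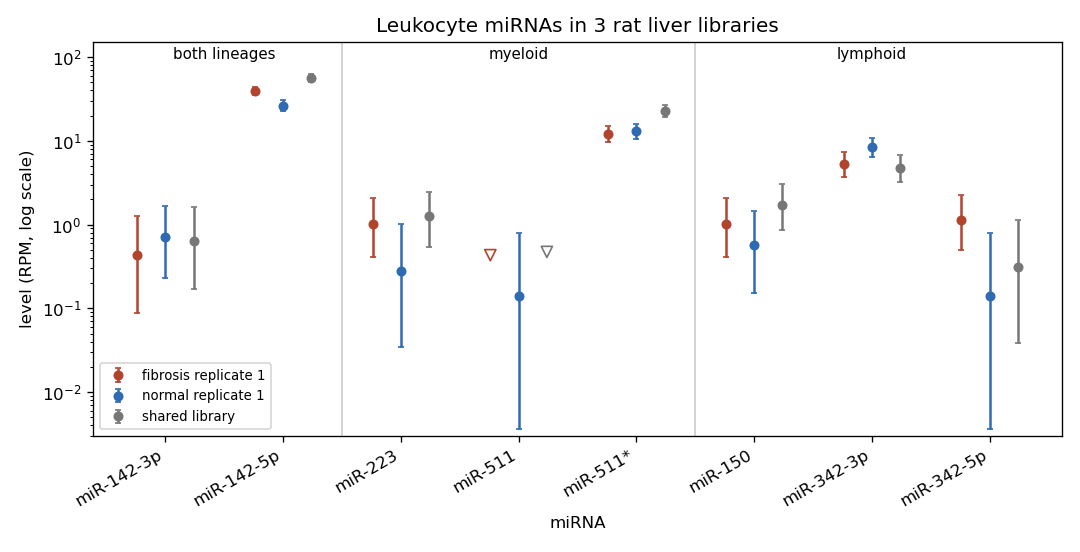
Level in RPM (log axis) of each of the 8 leukocyte miRNAs in fibrosis replicate 1, normal replicate 1 and the shared library, with 95% exact Poisson intervals as bars. Open triangles mark the level that a count of 0 allows. Only miR-142-5p, miR-511* and miR-342-3p stand above 4 RPM, and miR-142-5p has its lowest value, 26.4 RPM, in normal replicate 1.

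Between fibrosis replicate 1 and normal replicate 1 the leukocyte miRNAs did not move together. The interval of the ratio excluded 1 for 3 of the 8 members, 2 higher and 1 lower in fibrosis replicate 1, where 19.5% of all miRNAs with at least 1 read in either library (54 of 277) had such an interval. miR-142-5p was higher with a ratio of 1.49 (1.23 to 1.80), miR-342-5p higher with 8.14 (1.09 to 361) on 8 reads against 1, and miR-342-3p lower with 0.638 (0.411 to 0.978). The call of miR-342-3p was lost with 3 of 5 other scalings, where its interval reached up to 1.03 with TMM factors, 1.02 with DESeq2 size factors and 1.002 with the reads on listed miRNAs as the total. miR-342-5p was among only 2 of 144 miRNAs with at most 20 reads over both libraries whose interval excluded 1. For comparison, 39 of 62 miRNAs with more than 200 reads did so, the class in which miR-142-5p falls, and 13 of 71 between these limits.

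The ratios of the other members had intervals that included 1. miR-223 had a ratio of 3.56 (0.678 to 35.1), miR-150 one of 1.78 (0.453 to 8.29), miR-142-3p one of 0.610 (0.0948 to 3.14) and miR-511* one of 0.919 (0.676 to 1.25). A ratio of at least 1.5-fold in either direction was seen for 5 of the 7 members with reads in both libraries, 3 higher and 2 lower, and for 32.5% of all miRNAs with reads in both (69 of 212). All 5 rest on fewer than 60 reads in each library, and miR-142-5p, the best measured member, lies just short of that fold. It passed the fold at 1.56 with TMM factors, 1.56 with DESeq2 size factors and 1.53 with the reads on listed miRNAs as the total. It stayed below at 1.45 with miR-122 left out of the total and 1.42 with upper-quartile factors. The median log2 ratio over the 7 members was 0.58, beside -0.07 over the 212 miRNAs. This median is the value of miR-142-5p itself, and the members above it, miR-223, miR-150 and miR-342-5p, had at most 8 reads in each library.

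Summed by lineage, the reads gave the same mixed picture. The miR-142 arms together had a ratio of 1.47 (1.22 to 1.77), the myeloid members 0.964 (0.716 to 1.30) and the lymphoid members 0.826 (0.562 to 1.21). All 8 together had 60.4 RPM in fibrosis replicate 1, against 49.8 RPM in normal replicate 1, a ratio of 1.21 (1.05 to 1.402). Without miR-142-5p and miR-511* the sum was 62 reads against 72, a ratio of 0.876 (0.613 to 1.25). These values compare a library with a library and have no replicate check, so they are no statement on the conditions.

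The 2 against 2 comparison that the labels state called no leukocyte miRNA. limma on log2(RPM + 1) called 0% of 294 miRNAs (0) at an adjusted p under 0.05, with 4 at an unadjusted p under 0.05. edgeR's quasi-likelihood test on the recovered reads called 0, with 1 at an unadjusted p under 0.05, and DESeq2 called 0 with 0 at that level. The fitted log2 differences of the 8, fibrosis minus normal, ran from -0.28 (SE 0.41) for miR-342-3p to 0.46 (SE 0.27) for miR-342-5p, with an adjusted p of 1 from limma for each. That of miR-142-5p was 0.28 (SE 0.34). Since the shared library sits in both groups of this fit, a fitted difference averages the difference between the other libraries with 0, and its p cannot speak for the tissues.

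**Figure D2:**
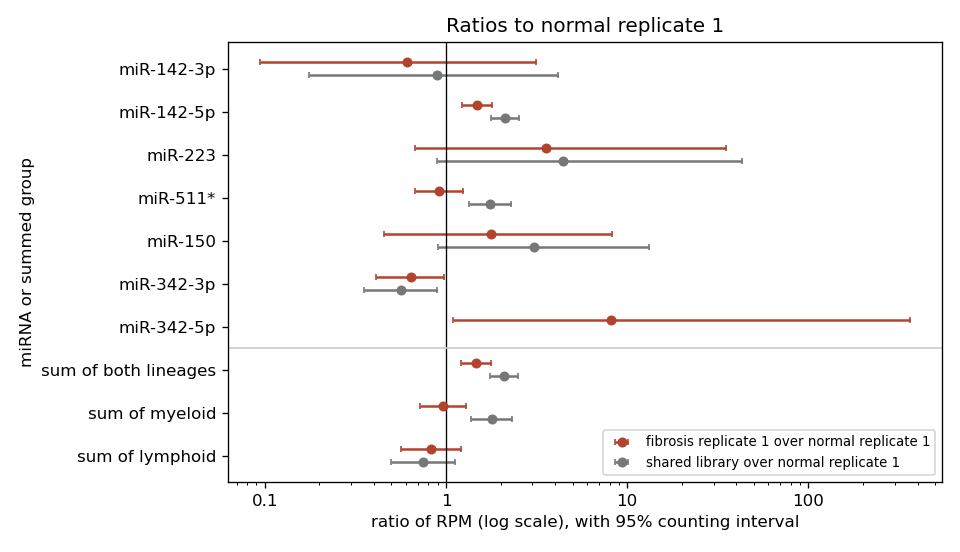
Ratio of RPM (log axis) to normal replicate 1 for fibrosis replicate 1 and for the shared library, with 95% counting intervals as bars, for 7 members and for the summed reads of each lineage. miR-511 is not shown, and the pair with 2 reads against 1 for miR-342-5p is left out. miR-142-5p lies right of 1 in both comparisons and miR-342-3p left of 1 in both, while miR-511* lies right of 1 only for the shared library.

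The direction for miR-142-5p, and for miR-511* against the shared library, depended on the tissue to which that library belongs, which is not known. This library stands under both labels, and in the normal file under a column heading that is not the sample's title. Against normal replicate 1 it had ratios of 2.12 (1.77 to 2.54) for miR-142-5p, 1.75 (1.34 to 2.29) for miR-511* and 0.566 (0.352 to 0.892) for miR-342-3p, the 3 members whose interval excluded 1, beside 26.5% of all miRNAs (72 of 272). Fibrosis replicate 1 over the shared library gave 0.704 (0.599 to 0.826) for miR-142-5p and 0.526 (0.397 to 0.693) for miR-511*, the 2 of 7 members with reads whose interval excluded 1, beside 23% of all miRNAs (63 of 274). Both comparisons rest on the same shared library and are not separate evidence. If the shared library is fibrotic, miR-142-5p was highest in the fibrotic pair, and if it is normal, the normal pair of libraries spans the fibrosis value, at 26.4 and 56.0 RPM around 39.4 RPM. For miR-511* a fibrotic shared library would put the fibrotic pair at 12.1 and 23.0 RPM around 13.2 RPM. A normal one would put the normal pair, at 13.2 and 23.0 RPM, above 12.1 RPM, though the intervals of the replicate 1 libraries overlap. For miR-342-3p the shared library was near fibrosis replicate 1, with a ratio of fibrosis replicate 1 to it of 1.13 (0.678 to 1.89). miR-223 and miR-150 were lowest in normal replicate 1, on 2 and 4 reads.

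The reads of the miR-142 and miR-511 hairpins were split very unequally between the arms, in all 3 libraries. Whether reads of different sequences follow their amounts in the tissue was not tested. miR-142-5p took 98.9% of the miR-142 reads in fibrosis replicate 1 (96.9 to 99.8), against 97.4% in normal replicate 1 (94.0 to 99.1), and 98.9% in the shared library (97.2 to 99.7). Nearly all reads of this hairpin were thus assigned to the arm with the seed AUAAAGU and few to that with the seed GUAGUGU. How the authors counted reads that start or end off the annotated arm is not given in the sources used here. For miR-511 the asterisked arm took all 84 reads in fibrosis replicate 1, against 93 of 94 in normal replicate 1, and all 146 in the shared library. Where the unmarked arm had 0 reads, 3 reads of the total would be 3.57% in fibrosis replicate 1 and 2.05% in the shared library, and the exact intervals of its share reach 4.296% and 2.495%. The asterisk therefore did not mark the arm of miR-511 with fewer reads in these libraries.

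An asterisked arm above its partner was uncommon but not confined to miR-511. Among name pairs with and without an asterisk and at least 20 reads together, it was seen in 11 of 71 in fibrosis replicate 1, against 10 of 73 in normal replicate 1, and 9 of 70 in the shared library. A one-sided split of the reads was the rule. Over all pairs of arms with at least 20 reads the median share of the arm with more reads was 99.98%, 99.8% and 99.8% in the same order. The share of miR-142-5p thus lay below the median hairpin.

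Of the 3 hairpins with both arms among the members, miR-342 was the least one-sided in fibrosis replicate 1 and the shared library. In normal replicate 1 miR-142 was, with 97.4% of its reads on the larger arm against 98.3% for miR-342. miR-342-5p took 17.8% of the miR-342 reads in fibrosis replicate 1 (8.0 to 32.1), against 1.67% in normal replicate 1 (0.0422 to 8.94), and 6.25% in the shared library (0.766 to 20.8). The intervals of fibrosis replicate 1 and normal replicate 1 overlap between 8.0% and 8.94%. This share does not depend on the scaling, but in normal replicate 1 it rests on 1 read of 60. The other arms of miR-223 and miR-150 are not among the 8 but were measured too. miR-223 took 7 of 9 reads in fibrosis replicate 1, against 2 of 3 in normal replicate 1, and 8 of 9 in the shared library. miR-150 was closer to an even split, with 7 of 11 reads in fibrosis replicate 1, against 4 of 7 in normal replicate 1, and 11 of 19 in the shared library. Its intervals ran from 18.4% to 90.1% at the widest.

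**Figure D3:**
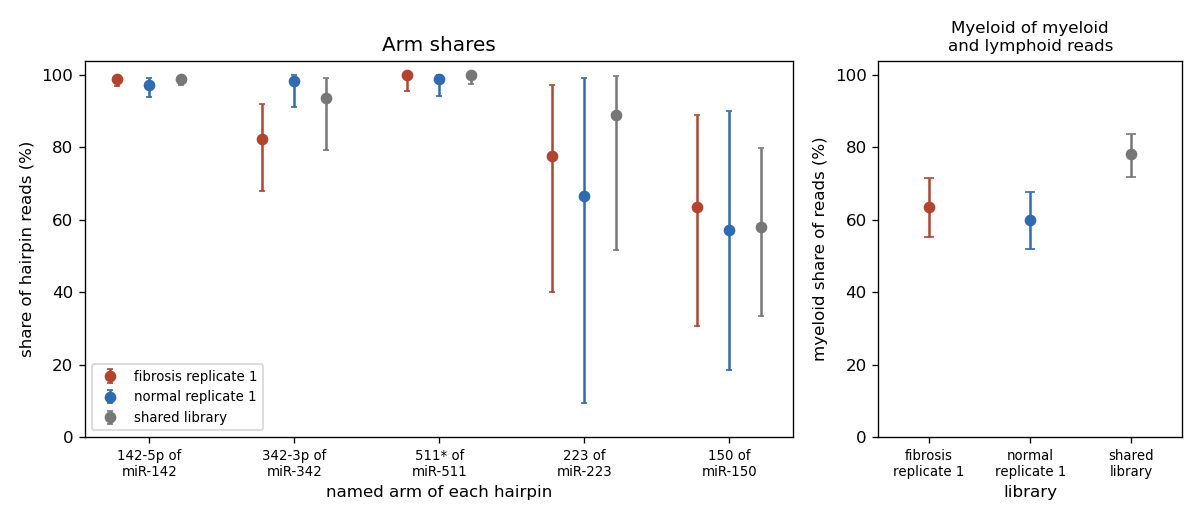
Left, share of each hairpin's reads on the named arm, in percent, for fibrosis replicate 1, normal replicate 1 and the shared library. Right, share of myeloid reads (miR-223, miR-511, miR-511*) among myeloid and lymphoid reads (miR-150 and both miR-342 arms), in percent, with 95% exact binomial intervals as bars in both panels. The miR-142 and miR-511 hairpins are above 97% throughout, and the myeloid share is highest in the shared library, at 78.2%.

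Set against the lymphoid members, the myeloid members held the larger part of the reads in each library. Their share was 63.6% (55.2 to 71.5) in fibrosis replicate 1, on 91 myeloid and 52 lymphoid reads, against 60% (52.0 to 67.7) in normal replicate 1, on 96 and 64 reads. In the shared library it was 78.2% (71.7 to 83.7), on 154 and 43 reads. The shares of fibrosis replicate 1 and normal replicate 1 differed by less than their counting intervals, and the interval of the shared library lay above both. miR-511* made up 92.3%, 96.9% and 94.8% of the myeloid reads and miR-342-3p 71.2%, 92.2% and 69.8% of the lymphoid reads, so this share is close to a contrast of these 2 miRNAs. Leaving out miR-511*, the dominant arm of its hairpin, together with miR-342-5p, the minor arm of its own, removed nearly all myeloid reads and put the myeloid share at 13.7% in fibrosis replicate 1, against 4.55% in normal replicate 1, and 16.3% in the shared library. miR-223 against miR-150 alone, a contrast added after the values were seen, gave 50% (23.0 to 77.0) in fibrosis replicate 1 on 14 reads, against 33.3% (4.33 to 77.7) in normal replicate 1 on 6 reads, and 42.1% (20.3 to 66.5) in the shared library on 19 reads. Which lineage holds more of these reads thus changes with the miRNAs that stand for it. Whether reads of different miRNAs follow their amounts, or the numbers of cells, was not tested.

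The miRNAs with the pattern most like that of the 2 most abundant members over the 3 libraries were sought among 71 other miRNAs that averaged 10 RPM or more, by the Euclidean distance between log2(RPM + 1) values centred over the libraries. For miR-142-5p they were miR-24 (distance 0.20), miR-199a-3p (0.22) and miR-322* (0.33). miR-24 stood at 37.3 RPM in fibrosis replicate 1, against 28.0 RPM in normal replicate 1, and 48.8 RPM in the shared library. miR-199a-3p, a miRNA of mesenchymal cells, had 592.0, 350.5 and 903.4 RPM in the same order. For miR-511* the nearest were miR-499 (0.23), miR-98 (0.25) and miR-26b (0.37), each highest in the shared library and lowest in fibrosis replicate 1. With 3 libraries many miRNAs share an order, so this is a description of these libraries.

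Lists of other miRNAs known from blood and liver cells were also compared between fibrosis replicate 1 and normal replicate 1. How far each is confined to its cell type was not tested. Of all 212 miRNAs with reads in both, 21 higher and 33 lower had intervals that excluded 1. Above 200 reads over both libraries 39 of 62 had such an interval, so small differences of abundant miRNAs are called. For miR-122 the ratio was 0.927 (0.925 to 0.929). Of 15 further miRNAs known from blood cells, 13 had reads in both libraries, 8 higher and 5 lower, and 5 of the higher and 1 of the lower had intervals that excluded 1. Their median log2 ratio was 0.41. The most abundant of them, miR-23a, had a ratio of 1.13 (0.974 to 1.31), and the next, miR-24, one of 1.33 (1.10 to 1.61). After these came miR-181a, which acts in lymphocyte development, with 1.47 (1.22 to 1.79). miR-181a stood at 37.5 RPM in fibrosis replicate 1, against 25.5 RPM in normal replicate 1, and 25.0 RPM in the shared library. None of the 5 lower miRNAs is among these examples, which were chosen by abundance. Both red cell miRNAs had ratios below 1, with an interval that excluded 1 for miR-451 only, and a summed level of 2.88 RPM in fibrosis replicate 1, against 7.78 RPM in normal replicate 1, and 2.04 RPM in the shared library. Normal replicate 1 was the library with the most red cell miRNA, and of the members it had the least miR-142-5p and the most miR-342-3p. The 3 hepatocyte miRNAs were all lower in fibrosis replicate 1, with a median log2 ratio of -0.19 and intervals that excluded 1, and both endothelial ones had intervals that included 1. Of 5 stellate and mesenchymal miRNAs 2 had ratios above 1 and 3 below, and the interval excluded 1 for 1 above and 2 below. Their summed level was 669 RPM in fibrosis replicate 1, against 466 RPM in normal replicate 1, and 1009 RPM in the shared library, and was mostly miR-199a-3p, the one called higher. The pair called lower was miR-143, with 62.1 RPM in fibrosis replicate 1, against 97.3 RPM in normal replicate 1, and 91.2 RPM in the shared library, and miR-145, with 9.21, 13.7 and 6.92 RPM in the same order. The part of these cell types, or of residual blood, in the values of the leukocyte miRNAs was not tested.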

How the data were processed

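Per the labels' protocols, total liver RNA was turned into libraries with a small RNA kit of Illumina. CASAVA 1.4 and build rn5 are named in the submitters' processing notes. The aligner, the miRNA annotation and the treatment of reads with several matches were not given in the sources used here. The authors deposited 1 file per sample with values in reads per 1000000 reads (RPM). Divided by the worth of 1 read, 100% of the nonzero values came out as whole reads within a tolerance of 0.01.

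Ratios of fibrosis replicate 1 to normal replicate 1 carry the Clopper-Pearson interval of the reads of 1 library among those of both, and shares carry exact binomial intervals. limma 3.58.1 (R 4.3.3) was fitted to log2(RPM + 1) with a mean-variance trend over miRNAs above 0 in any library, with Benjamini-Hochberg adjustment. On that scale a difference understates the change of low miRNAs. As alternatives, the recovered reads were tested with edgeR 4.0.16 and with DESeq2 1.42.0, and each called 0. The intervals were tried on simulated counts with Poisson error alone, and the fit on simulated counts. The fit had to pass only where all libraries were distinct. That says nothing on the layout here, with 1 library in both groups. This layout was simulated too, without a requirement to pass, and its outcome is not reported here. Python 3.11.15, scipy 1.17.1 and matplotlib 3.10.9 were used for the rest. With 2 against 2 samples an exact permutation test cannot go below 0.333.

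All 8 members are named. Pattern neighbours are the 3 nearest miRNAs for each of the 2 most abundant members, and 5 marker lists are given by counts. The members and lists were chosen with earlier results of these data known.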

Additional observations from a re-analysis of the deposited data

How the results depend on the processing

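The 2 against 2 comparison called 0 miRNAs under each alternative run: pseudocounts of 0.5 and 10, no filter, a mean of at least 1 RPM, TMM factors, edgeR, DESeq2 and leaving out each library, which assumes that a lone library varies as the other group does. With the replicate number as a replicate block it called 0 as well. The runs on all samples keep the shared library in both groups, and leaving out a library leaves a lone one in a group. Their agreement is therefore no sign of robustness. The files that share the number 2 hold the same values, so whether the numbers pair samples cannot be checked.

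The log2 ratio of fibrosis replicate 1 to normal replicate 1 kept its direction for the 7 members under all 5 other scalings, which shifted all ratios by -0.07 to 0.07. The member ratio smallest in size was -0.12, for miR-511*, so these shifts could not change a direction. The kept direction is therefore no evidence of robustness. Taking the shared library as the normal side reversed miR-142-5p to -0.51 and lowered miR-511* to -0.93. It also changed the sign for miR-342-3p (0.17), miR-223 (-0.32) and miR-150 (-0.78), each with an interval that included 0. Taking it as the fibrosis side gave 1.08 for miR-142-5p and 0.80 for miR-511*, so both changed direction between these settings. miR-511, and miR-342-5p with the shared library as the fibrosis side, had too few reads for a ratio.

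The myeloid share depended on its members. Without the miR-342 arms it was 92.9% in fibrosis replicate 1, against 96% in normal replicate 1, and 93.3% in the shared library. Without miR-511*, the dominant arm, and miR-342-5p, the minor one, it was 13.7%, 4.55% and 16.3%, with the miR-142 arms on the myeloid side 87.6%, 81.8% and 92.3%, and for miR-223 against miR-150 alone 50%, 33.3% and 42.1%. Adding 0.5 reads to each arm left every arm share within its interval. So small a shift stays inside an exact interval almost by construction, and nothing is concluded from it. For members with 11 or fewer reads in each library (miR-142-3p, miR-223, miR-511, miR-150 and miR-342-5p), depth limits what any comparison can show.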
